A study of Drosophila melanogaster with 2 samples.

Results

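Of the 6747 Onecut peak summits on the chromosome arms, 1650 lay in first introns, away from start sites and exons (24.5%, 95% Wilson interval 23.4 to 25.5). A peak belonged to this set when its summit, the position of highest signal within the peak, met 3 conditions. It lay more than 500 bp from every protein-coding transcription start site (TSS), in no exon of a protein-coding transcript, and inside the first intron of at least 1 protein-coding transcript. The peaks come from chromatin immunoprecipitation with sequencing (ChIP-seq) of whole Drosophila melanogaster embryos of the strain onecut-GFP, aged 0 to 24 hours, which carry an onecut-eGFP transgene (Onecut joined to a green fluorescent protein) and whose chromatin was precipitated with anti-GFP. Both libraries, biological replicates 1 and 2, form 1 group, so there is no control genotype, stage or treatment to compare with. The embryos were whole, so the cells in which a site was bound are not known. Peaks were called past a threshold of 0.01 on the irreproducible discovery rate (IDR), which grades peaks by whether both libraries rank them alike. All coordinates are in dm6.

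Onecut proteins are transcription factors that bind DNA with a cut domain together with a homeodomain, and the Drosophila protein is known as a factor of the nervous system. First introns begin just downstream of the first exon and are known to hold many enhancers, the sequences that raise transcription of a gene from a distance. A summit in such an intron marks DNA that was recovered with the tagged protein, by direct binding or through another protein, and does not show that the host gene is a target.

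The core sequence bound by the Onecut family reads ATCGAT or ATTGAT, called the core motif here. ATCGAT reads the same on both strands, and ATTGAT appears as ATCAAT when it lies on the minus strand. Each window printed here reaches 50 bp to either side of the summit, 101 bp in all, and was read from the plus strand of the Release 6 (dm6) assembly, with the core motif in capitals. The windows are a choice among first-intron peaks of high signal that hold the motif, and are not a sample of all such peaks. In them the nearest motif centre lay between -14 bp (elav) and 17 bp (Tlk) from the summit, where minus is toward lower coordinates. Among other members of the 15 highest it lay at 12 bp in CG6966, -13 bp in CG7029, 15 bp in CG1090 and alphaTub84B, and -36 bp in Lk6. The window of gpp is chr3R:6419259-6419359, that of 14-3-3epsilon chr3R:18243736-18243836, that of Eip74EF chr3L:17574080-17574180, that of Tlk chrX:3742542-3742642 and that of faf chr3R:31777961-31778061. The windows of neural and chromatin genes are chrX:522428-522528 for elav, chr2L:17751446-17751546 for CadN and chr3L:14755307-14755407 for Trl.
gpp: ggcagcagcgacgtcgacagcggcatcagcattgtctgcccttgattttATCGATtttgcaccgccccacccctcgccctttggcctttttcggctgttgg
14-3-3epsilon: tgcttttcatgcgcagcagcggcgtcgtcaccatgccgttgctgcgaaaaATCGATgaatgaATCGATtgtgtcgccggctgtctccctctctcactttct
Eip74EF: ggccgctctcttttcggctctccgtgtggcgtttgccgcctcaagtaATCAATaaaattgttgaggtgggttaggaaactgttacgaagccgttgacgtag
Tlk: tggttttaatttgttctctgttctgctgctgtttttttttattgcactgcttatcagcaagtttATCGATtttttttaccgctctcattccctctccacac
faf: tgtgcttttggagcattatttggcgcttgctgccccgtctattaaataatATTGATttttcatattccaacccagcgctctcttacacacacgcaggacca
elav: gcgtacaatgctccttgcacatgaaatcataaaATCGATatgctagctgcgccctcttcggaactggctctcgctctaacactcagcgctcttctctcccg
CadN: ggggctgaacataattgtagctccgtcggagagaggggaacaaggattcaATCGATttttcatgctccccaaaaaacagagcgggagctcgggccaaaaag
Trl: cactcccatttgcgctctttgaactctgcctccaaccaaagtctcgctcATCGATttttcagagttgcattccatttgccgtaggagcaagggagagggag
Runs of T follow the core in gpp, Tlk, faf, CadN and Trl, and a run of A precedes it in 14-3-3epsilon and elav.

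Other strong summits had no core motif in the same window, which says only that these letters are not there. They are shown for ush at chr2L:481014-481114, for CG32772 at chrX:4910328-4910428 and for CG9663 at chr2L:3302127-3302227, again on the plus strand.
ush: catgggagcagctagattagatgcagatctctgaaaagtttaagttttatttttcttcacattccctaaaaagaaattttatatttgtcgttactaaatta
CG32772: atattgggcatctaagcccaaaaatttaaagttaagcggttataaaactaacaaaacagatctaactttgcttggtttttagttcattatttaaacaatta
CG9663: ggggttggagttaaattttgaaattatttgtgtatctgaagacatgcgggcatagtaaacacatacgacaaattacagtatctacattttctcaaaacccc
All 3 peaks were in the thresholded lists of both replicates.

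First introns held Onecut summits at a higher density than other introns or intergenic sequence. Sequence that met the rule covered 22532613 bp, 16.8% of the arms, and carried 7.32 summits per 100 kb. Later introns, chosen by the same rule but in no first intron, carried 2.87 per 100 kb (863 summits), intergenic sequence 2.70 (1082 summits) and sequence within 500 bp of a TSS 19.4 (2980 summits). The first-intron density was 2.55 times that of later introns. The list of replicate 1 alone gave 5.54 and 2.00 per 100 kb, a ratio of 2.76, and the list of replicate 2 alone gave 6.32 and 2.48, a ratio of 2.55. Differences between classes of sequence were not tested, since summits and bases are not replicates and 1 group of 2 libraries allows no test. The intervals given cover counting error only, and the read depth behind the lists is unknown.

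Summits were denser in first introns than in later introns in each of 6 ranges of distance from a start site. Among sequence 500 to 1000 bp from the nearest protein-coding TSS, first introns carried 13.9 summits per 100 kb and later introns 5.67. From 1000 to 2000 bp the densities were 9.62 and 3.91. From 5000 to 10000 bp they were 5.44 and 3.68, the lowest ratio of the 6 ranges in the main list. Farther than 20000 bp from any TSS they were 3.47 and 1.04, from 55 and 94 summits. The ratio of first to later introns ran from 1.48 to 3.34 over the 6 ranges in the main list, from 1.45 to 3.72 in replicate 1 alone and from 1.48 to 4.14 in replicate 2 alone. The density of first-intron summits fell with every step away from the nearest TSS in the main list and in replicate 1, and in replicate 2 it was 3.31 from 10000 to 20000 bp and 3.66 farther away.

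**Figure D1:**
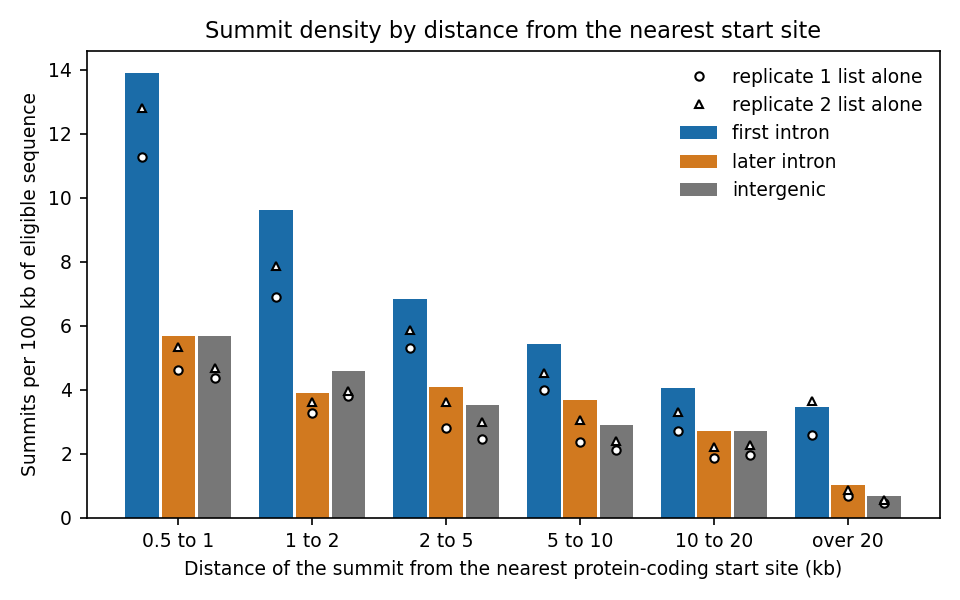
Summits per 100 kb of eligible sequence (y axis) in 6 ranges of distance from the nearest protein-coding TSS (x axis, kb), as bars for the main list, with circles and triangles for the lists of replicate 1 and replicate 2 alone. First introns stand above later introns in every range, from 13.9 against 5.67 in the nearest range to 3.47 against 1.04 in the farthest.

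Seen from the host gene, summits lay a median of 3024 bp from the TSS of the transcript whose first intron held them, with the middle 50% between 1276 and 7829 bp. Counted once per summit, the introns themselves were long, with a median of 9067 bp. Summits stood nearer the 5′ end of the intron: 1002 of 1650 (60.7%) lay in its first 50%, and the median position was 39.3% of the way along. Where several transcripts held a summit, the one with the nearest TSS was used, which favours short distances and the 5′ end. By the farthest such TSS the median distance was 4251.5 bp. The position of eligible sequence as a whole is not given here. For 204 summits the nearest TSS belonged to another gene than the host. The summit was in the first intron of every transcript that overlapped it for 1018 members and of only some transcripts for the other 632, and their median signals were 147.5 and 144.1. At the rule's limit, the 107 members over 500 and up to 600 bp from the nearest TSS had a median signal of 185.7, and the 110 first-intron summits over 400 and up to 500 bp away, which the rule leaves out, had one of 239.2. Just inside it were summits in phyl at 502 bp, with a signal of 755.8, aru at 503 bp with 551.1 and mura at 503 bp with 68.6. Just outside it were first-intron summits in CG31523 and Mhcl, both at 499 bp with signals of 326.7 and 74.0, and in CG6891 at 497 bp with 98.8.

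The first-intron peaks were of middling height for this experiment. Signal, the peak height in the deposited list, had a median of 146.3 and a middle 50% between 105.5 and 233.4, against medians of 135.5 in later introns, 140.6 in intergenic sequence and 160.7 near start sites. The median was 0.982 times that of the whole list, and it was 0.977 and 1.02 times in the lists of replicates 1 and 2 alone, so it sat on either side of the list's own median. The set held 19 of the 100 highest peaks and 104 of the 500 highest. Of all first-intron peaks that were ranked, 8594, the 1650 members make 19.2%, beside 20.9% of ranked peaks on the arms as a whole, 35.0% near start sites and 14.99% in later introns.

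Most first-intron peaks were seen in both replicates. Thresholded peaks of replicate 1 and of replicate 2 both overlapped the peak in 1032 members (62.5%, 60.2 to 64.8), beside 62.2% of all peaks on the arms and 55.2% of those in later introns. In 142 members the overlap was with replicate 1 only, in 258 with replicate 2 only and in 218 with neither. Their median signals were 201.1 for both, 103.4 and 113.3 for replicate 1 or 2 only, and 87.3 for neither. Below the threshold, in the ranked lists, 1636 members had a peak in both replicates. Across these 1636 peaks the signals of the replicates had a Spearman rank correlation of 0.777. The members had passed a threshold that keeps peaks ranked alike by these same 2 libraries. A positive correlation was therefore set in advance, and the value is no measure of reproducibility. Of the members, 126 shared their ranked peak of replicate 1, and 90 that of replicate 2, with another summit of the main list.

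The core motif was present at 643 of the 1650 first-intron summits (38.97%, 36.6 to 41.3). In the lists of replicates 1 and 2 alone the share was 36.6% and 41.6%. It was 10.2% in windows 1000 bp to either side of the members that lay in no peak (307 of 3024), and 10.7% over 212344 windows that tile the eligible first-intron sequence outside peaks. ATCGAT was in 19.0% of members and 2.55% of tiles, and ATTGAT in 21.8% and 8.50%. Of the 6-base words, counted on both strands, ATCGAT had the highest ratio of its share in members to its share in tiles, 7.43. The next were TATCGA at 4.10, AATCGA at 2.96, TATTGA at 2.94 and ATTGAT at 2.56, all of which overlap a form of the core motif. Summits in later introns held the core motif in 44.7% of windows, those near start sites in 36.6% and intergenic ones in 35.7%. The motif was rarer at first-intron summits that were ranked below the threshold, at 17.4% (1207 of 6944).

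Occurrences were packed at the summit. Within 20 bp of first-intron summits there were 417 motif centres, 6.48 per 1000 summits per bp, against 1.28 at 300 to 400 bp, a ratio of 5.04. The ratio was higher in the other classes, at 7.86 in later introns, 5.51 in intergenic sequence and 5.30 near start sites. The bases beside the core differed from those in the tiles, more for ATTGAT than for ATCGAT. At members, ATTGAT was preceded by T in 65.1% of the 378 occurrences whose neighbours lay in the window and followed by T in 76.7%. In tiles these shares were 24.95% and 44.01%, and at later-intron summits they were 62.5% and 79.2%, close to those of members. ATCGAT was preceded by T in 27.2% and followed by T in 47.3% at members, against 24.2% and 37.5% in tiles. ATTGAT lay on the coding strand of the host in 205 of all 382 occurrences (53.7%, 48.7 to 58.6). The longer word TATCGATA, which the promoter factor DREF binds, was in only 1 member (0.0606%), against 3.83% of summits near start sites and 0.186% of first-intron tiles. CGATAG, part of the same word family, was in 3.27% of members and 11.8% of summits near start sites.

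**Figure D2:**
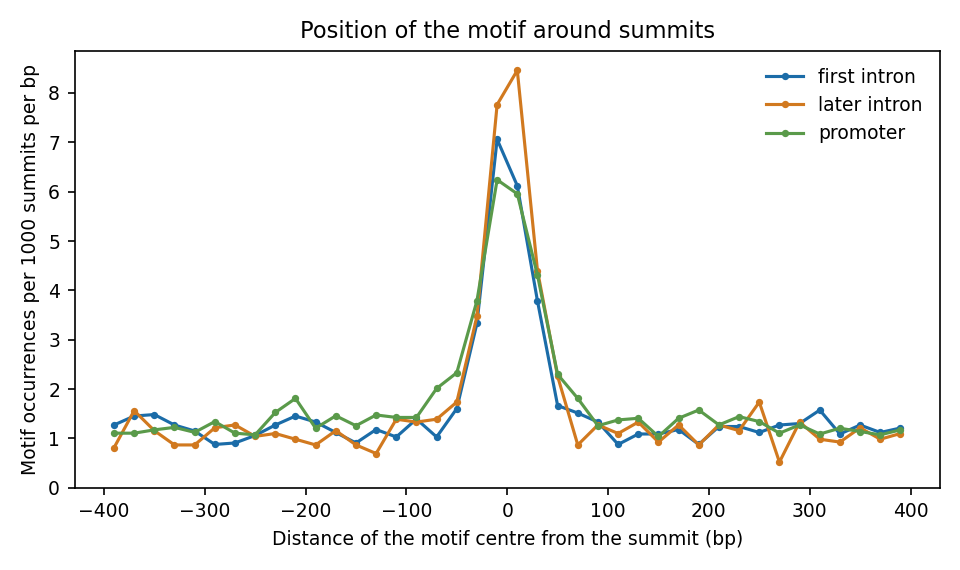
Occurrences of the core motif per 1000 summits per bp (y axis) by distance of the motif's centre from the summit (x axis, bp, bins of 20 bp), for summits in first introns, in later introns and near start sites. All 3 curves peak at the summit; within 20 bp of first-intron summits the level was 6.48, against 1.28 at 300 to 400 bp.

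Members with the motif were higher peaks in the main list, and over all members the difference in median was larger in replicate 2 than in replicate 1. Their median signal in the main list was 173.9, against 136.5 without the motif, among members with a ranked peak in both replicates (637 and 999). In the ranked list of replicate 1 the medians were 68.1 with and 65.7 without the motif, a ratio of 1.04. In that of replicate 2 they were 104.3 and 75.9, a ratio of 1.37. The median ratio of replicate 2 to replicate 1 was 1.53 with the motif and 1.15 without, and replicate 2 was the higher in 88.9% and 69.1% of members. The scale and depth of each list are unknown, so a higher value in replicate 2 is not read as stronger binding. The share with the motif was 16.9% (11.6 to 23.9) where a peak overlapped the list of replicate 1 only and 46.9% (40.9 to 53.0) where it overlapped that of replicate 2 only. Later introns gave 25.4% and 48.9%.

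Base composition moved with the same split. Windows with the motif had a median GC content of 43.6% and those without 36.6%. With members split at the quartiles of GC content into 4 parts, in the lowest the median ratio of replicate 2 to replicate 1 was 1.16 with the motif and 1.10 without. In the highest it was 1.60 and 1.28. The ratio was higher with the motif in each of the 4 and rose with GC content for both kinds of window. Replicate 1 by itself also differed within some parts: its median signal with and without the motif was 83.3 and 76.0 in the lowest part, 61.9 and 69.1 in the second, 63.1 and 55.4 in the third, and 75.2 and 53.4 in the highest. The part of base composition, of library preparation or of the embryos in the split between the replicates was not tested. By signal in the main list, the motif's share was 24.5% in the weakest of 4 equal parts of the members, 40.3% and 38.6% in the middle ones, and 52.5% in the strongest. More copies did not go with more signal: the 574 members with 1 copy had a median signal of 179.4 and the 61 with 2 copies one of 141.5. The members with most copies were in AdamTS-A, which encodes a secreted metalloprotease, with 5 copies and a signal of 208.9, and in tara with 4 copies and 144.6. Next were 6 members with 3 copies each, of median signal 124.0. One of them, with a signal of 451.2, was in Mrtf, a coactivator of serum response factor.

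**Figure D3:**
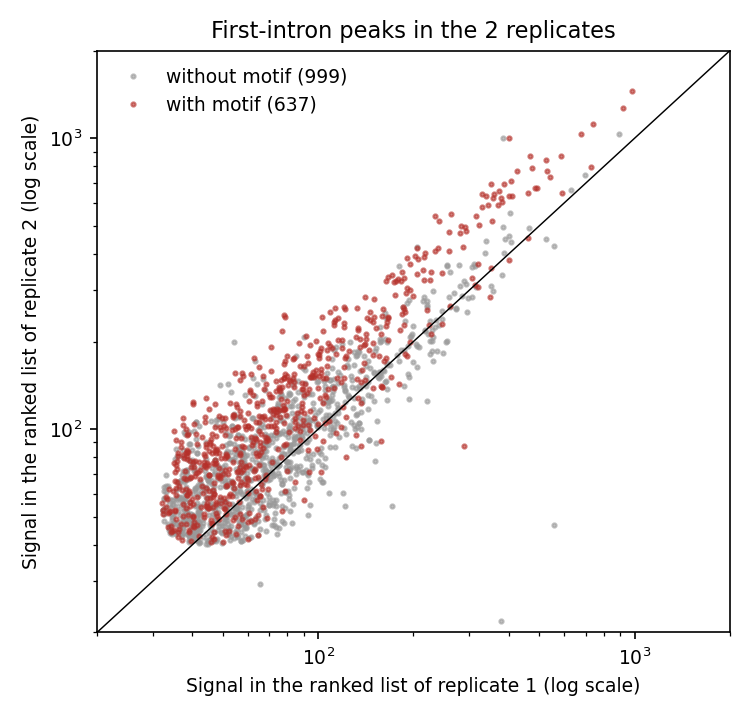
Signal of each first-intron peak in the ranked list of replicate 1 (x axis, log scale) and of replicate 2 (y axis, log scale), 637 members with the core motif and 999 without; the line marks equal values. Members of both kinds lie mostly above the line, with a median ratio of 1.53 with the motif and 1.15 without.

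The highest first-intron peak, the 5th of all peaks on the arms, lay 12452 bp into gpp, which encodes the histone H3 lysine 79 methyltransferase Dot1. Its signal was 2426 in the main list and 984.0 and 1458 in the ranked lists of replicates 1 and 2. The next was 1099 bp into 14-3-3epsilon, an adaptor that binds phosphorylated proteins, with 2184 in the main list and 920.1 and 1270 in the replicates. The third, 4844 bp into ush, the FOG-type cofactor of GATA factors, had 1962, with 895.9 and 1036, and no core motif. In all of these, replicate 2 gave the higher signal, by the least in ush. Over the members, too, the median was higher in replicate 2, at 85.0 against 66.7 in replicate 1.

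Further down were Eip74EF, an ETS-domain factor of the early ecdysone response, with a signal of 1714, and Lk6, a kinase that phosphorylates the translation factor eIF4E, with 1530. The tubulin genes alphaTub84B and betaTub56D had 1444 and 1364, at 565 and 1371 bp from the TSS. Tlk, the Tousled-like kinase, also had 1444, with 401.9 in replicate 1 and 1001 in replicate 2, the widest gap between replicates among the 15 highest members. A summit in the first introns of both CG7029 and the ubiquitin protease gene Usp12-46 had 1345, and faf, another ubiquitin protease, had 1305. A summit of 1264 lay in the shared first intron of CG46321, CG12912 and Hr3, of which Hr3 encodes a nuclear receptor of the ecdysone cascade. The others among the 15 were CG1090 (1861), CG32772 (1438), CG9663 (1346) and CG6966 (1285), for which no role is given here. Of the 15, 12 had the core motif.

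The 1650 summits fell in 964 host genes, 16.1% of the 5984 protein-coding genes that have any eligible first-intron sequence. Of the hosts, 583 held 1 summit, 215 held 2 and 166 held 3 or more. A few summits, 79 in all, had more than 1 host: 77 had 2 hosts and 2 had 3. Hosts had long first introns: their median eligible length was 7269 bp, against 340.5 bp for eligible genes with no member. The share of genes that were hosts went from 1.23% among genes with up to 500 eligible bp to 67.9% among those with more than 20000 bp. The number of members per 10 kb went the other way above 1000 bp, from 1.36 between 1000 and 2000 bp to 0.547 above 20000 bp. Neighbouring summits in a host were a median of 2556 bp apart, and 194 of 767 neighbouring pairs were closer than 1000 bp.

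The gene with most members was gpp, with 14 summits between 2556 and 29104 bp from a TSS. Of these, 7 held the core motif, including the 4 highest, whose signals were 2426, 1043, 779.6 and 497.4. The lowest, 18.3 at 13394 bp, lay beside one of 156.2 at 13189 bp, and both took their replicate values from the same ranked peaks. Next came tara, a nuclear protein of the trithorax group that acts in the cell cycle, with 12 summits and signals from 55.9 to 570.8. The 12 summits in ush ran from 22.0 to 1962, and only 2 held the motif. In mbl, the splicing regulator muscleblind, 8 of 11 summits held the motif, but the highest signal was 278.3. In sbb, a transcriptional corepressor also called scribbler or brakeless, 2 of 10 did, and 3 summits between 18782 and 22042 bp had signals of 807.5, 776.9 and 626.3. Per length, gpp carried 4.84 members per 10 kb, tara 4.09, ush 2.85, sbb 1.83 and mbl 1.27, beside 0.746 over all eligible genes. These genes were picked for their number of members, so values above 0.746 follow in part from the choice. Some hosts with fewer members were denser, such as CHES-1-like with 9 members and 5.67 per 10 kb.

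**Figure D4:**
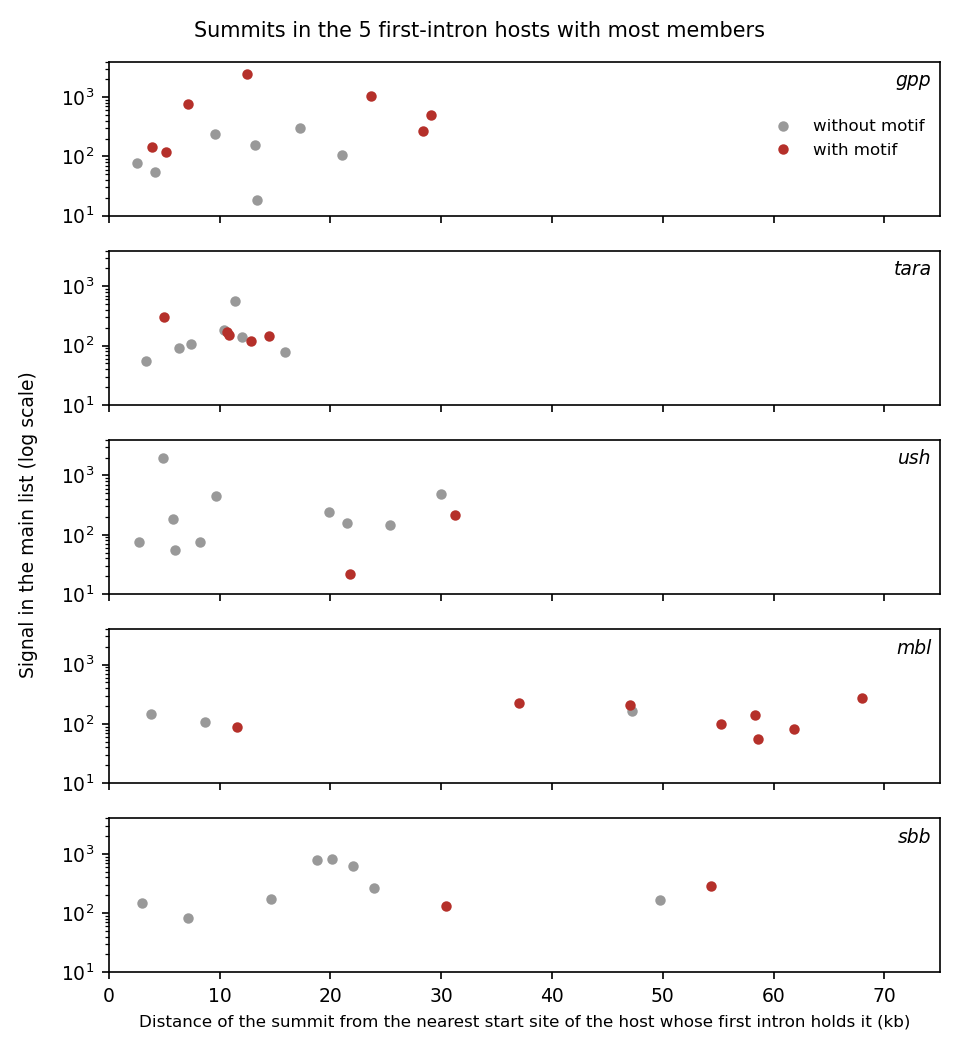
Distance from the host's TSS (x axis, kb) and signal in the main list (y axis, log scale) of each summit in the 5 genes with most first-intron members; red points hold the core motif and grey points do not. The 4 highest summits of gpp hold the motif, whereas in ush the 4 highest do not.

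Signalling and hormone genes had long first introns and many hosts. Of 31 eligible genes of Wnt, Hedgehog, BMP and receptor tyrosine kinase signalling, 20 were hosts (64.5%, 46.9 to 78.9, against 16.1% over all eligible genes), with 44 members. The highest were in aos, the secreted inhibitor of the EGF receptor (signal 628.0), InR, the insulin receptor (529.5), and fz, the Wnt receptor Frizzled (478.9, at 29712 bp). Of 16 eligible genes of the ecdysone response, 11 were hosts (68.8%), led by Eip74EF, Hr3 and Eip75B, a nuclear receptor (539.1). The lists' median eligible lengths were 8862 and 17128 bp, against 585 bp for all eligible genes. Over all genes the host share was 38.9% between 5000 and 10000 eligible bp and 51.1% between 10000 and 20000 bp. Per length the lists carried 1.14 and 1.24 members per 10 kb, against 0.746 over all eligible genes. In the Notch list 5 of 14 were hosts, with numb, an inhibitor of Notch in asymmetric division, at 397.3, bun, a TSC-22 family factor, at 288.4 and neur, a ubiquitin ligase that acts on Notch ligands, at 267.6.

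Among regulators of chromatin, 8 of 20 eligible genes were hosts, and the list's median eligible length was 720.5 bp. Lengths were uneven, and the hosts gpp, trx and Trl had 28950, 9154 and 2285 eligible bp. Over all genes the host share was 9.26% between 500 and 1000 eligible bp and 38.9% between 5000 and 10000 bp. The list carried 2.77 members per 10 kb, against 0.746 over all eligible genes. This was the highest value of the lists described here, and gpp gave 14 of the 29 members. Trl, the GAGA factor, had a signal of 1160 at 1979 bp, with 483.1 and 673.3 in replicates 1 and 2. In trx, the trithorax methyltransferase, it was 676.7, with 320.1 and 369.7. RNA-binding regulators gave 16 hosts of 25 (64.0%) but 0.662 members per 10 kb, below the 0.746 over all eligible genes. Their introns were long, with a median of 16802 eligible bp, and over all genes the host share was 51.1% between 10000 and 20000 bp. Density over all genes was 0.711 members per 10 kb in that range and 0.547 above 20000 bp, and the list's 0.662 lay between these. The highest were in elav, which is also in the pan-neuronal list (1083), mub (536.1), a KH-domain protein, and shep (363.0).

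Onecut is known to act in the nervous system, and 4 lists of neural function had host shares of 33.3% to 43.8%, against 16.1% over all eligible genes. Their median eligible lengths ran from 2621 bp in the pan-neuronal list to 7780 bp in the neuroblast list, and over all genes the host share was 25.5% between 2000 and 5000 eligible bp and 38.9% between 5000 and 10000 bp. Per 10 kb they carried 0.9904 members in the pan-neuronal and synaptic list, 0.609 in axon guidance, 0.736 in neuroblast and proneural genes and 0.371 in neuronal subtype factors, against 0.746 over all eligible genes. Density over all genes was 1.06 between 2000 and 5000 eligible bp and 0.897 between 5000 and 10000 bp. Of 21 pan-neuronal and synaptic genes 7 were hosts. The highest was elav, the neuronal RNA-binding protein, whose summit 748 bp from the TSS had 1083 in the main list and 459.1 and 646.2 in the replicates. Rab3, a GTPase of synaptic vesicles, had 816.6 and futsch, a microtubule-binding protein of axons, 382.8. For axon guidance the count was 11 of 30, with Ptp99A, a receptor tyrosine phosphatase, at 1182, fra, the Netrin receptor, at 1013 and Sema1a, a semaphorin, at 443.6. Neuroblast and proneural genes gave 7 of 16, with chinmo, a temporal factor, at 517.1, grh, the Grainyhead factor, at 324.7 and brat, a regulator of neuroblast fate, at 162.2. The factors of neuronal subtypes gave 9 of 27 with low signals only. The highest were Lim1 at 167.0, ct, the Cut homeodomain factor, at 158.2 and pdm3, a POU factor, at 122.3. These lie around the median of the whole list, 149.0. In the lists of replicates 1 and 2 alone, only 4 and 3 of these 27 were hosts, beside 749 and 821 of all 5984 eligible genes. The counts were 5 and 7 of 21 pan-neuronal, 10 and 10 of 30 axon guidance and 4 and 6 of 16 neuroblast genes.

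For the remaining lists the share over all eligible genes, 16.1%, and the density, 0.746 members per 10 kb, again stand for comparison. Densities were 0.398 in cell adhesion, 0.421 in ion channels and 0.633 in Hox genes and cofactors, below that value. They were 0.876 in mesoderm and muscle, 1.38 in glia and 1.51 in GATA, blood and gut factors, above it. In the last list, ush alone gave 12 of the 14 members. Median eligible lengths were 1555 bp in mesoderm and muscle and 1539 bp in glia. They were 3402 bp in ion channels, 5107.5 bp in cell adhesion and 9676 bp in Hox genes and cofactors. Over all genes, those with 1000 to 2000 eligible bp carried 1.36 members per 10 kb. Longer ones carried fewer, with 1.06 from 2000 to 5000 bp, 0.897 from 5000 to 10000 bp and 0.547 above 20000 bp. Cell adhesion genes gave 11 hosts of 32, with CadN, neuronal cadherin, at 892.8, mew, an integrin alpha chain, at 335.8 and Ten-m, a teneurin, at 301.5. Hox genes and cofactors gave 5 of 10. Antp held 7 summits, none with the core motif, with signals up to 255.1, and the highest in Abd-B and Ubx were 241.0 and 227.8. Ion channel genes gave 5 of 25, led by the potassium channel genes KCNQ at 643.9, Irk1 at 302.2 and Shaw at 249.6. Mesoderm and muscle genes gave 7 of 29, led by Mef2, a muscle transcription factor, at 338.1, Tm1, a tropomyosin, at 211.0 and mbc, which acts in myoblast fusion, at 204.5. Glial genes gave 3 of 15, which were Gs2, glutamine synthetase (205.3), nrv2, a sodium pump subunit (201.1), and loco, an RGS protein (143.9). The list of GATA, blood and gut factors gave 3 of 11, with ush, GATAd, a GATA factor, at 224.6 and cad, the caudal homeobox gene, at 214.3. Cytoplasmic ribosomal protein genes gave 0 of 15 eligible genes, with a 95% Wilson upper bound of 20.4%. Their median eligible length was 102 bp.

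**Figure D5:**
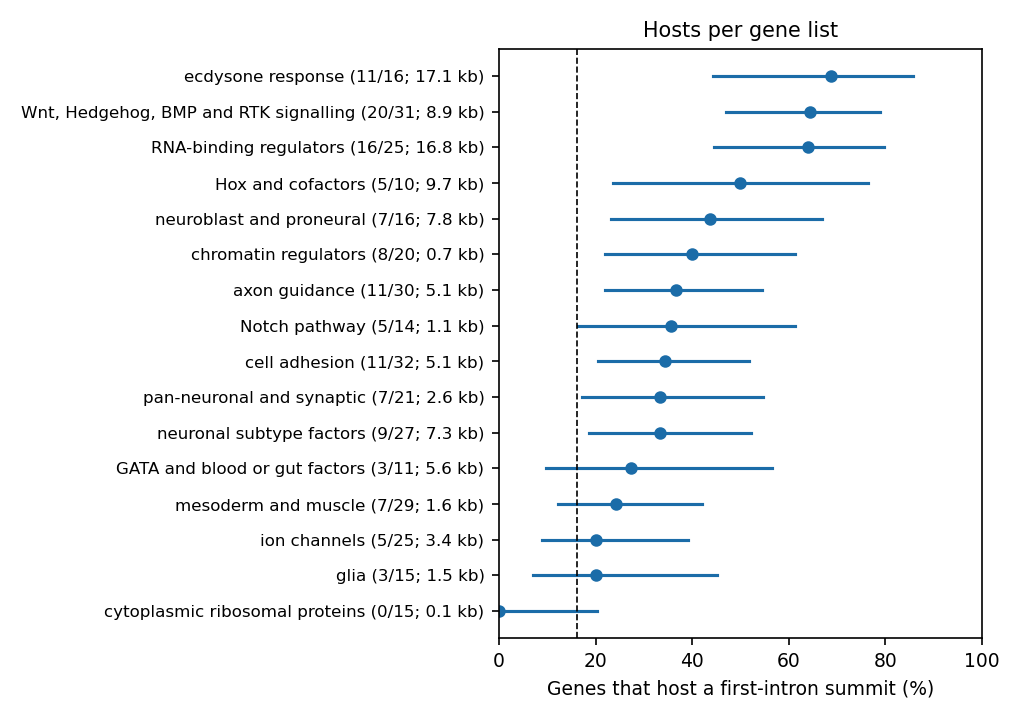
Share of genes with eligible first-intron sequence that host a summit (x axis, percent) for 16 gene lists, as points with 95% Wilson intervals; labels give hosts, eligible genes and the median eligible length in kb, and the dashed line is the share over all eligible genes, 16.1%. Lists with long first introns, such as ecdysone response and RNA-binding regulators, lie to the right, and ribosomal protein genes, with 0 of 15, to the left.

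The gene of the tagged protein, onecut, had 750 bp of eligible first-intron sequence and no member, nor any ranked summit there. On the arm that holds it, chromosome 4, there were 4 members, 2.78 per 100 kb of eligible sequence, against 6.46 to 7.83 on the other arms. The members farthest from their host's TSS were 3 summits in jing, a zinc finger transcription factor, at 105672, 104019 and 93478 bp in an intron of 110416 bp. Their signals were 99.6, 139.3 and 34.2, all below the list median, and none held the core motif. A protein-coding TSS lay nearer, between 2809 and 5494 bp from each.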

How the data were processed

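The authors deposited peak lists in dm6 for replicate 1, for replicate 2, for both together (the main, conservative list) and for pooled data. Each peak's signal value is as the authors' files give it, on a scale not given. Classes of peaks were compared within a list. Signals of replicates 1 and 2 were also set side by side as deposited, without scaling. The ranked lists hold the deposited −log10 of the IDR. No aligner, peak caller or read depth is given in the sources used here. Of 6755 peaks in the main list, 8 outside the arms were left out. Genes came from Ensembl release 115 (13945 protein-coding genes) and sequence from Release 6. Summits were classed in the order promoter, exon, first intron, later intron, intergenic. Eligible sequence is every base that meets a class's rule. The host distance is the shortest to the TSS of a transcript whose first intron holds the summit. A member's replicate signal is that of the overlapping ranked peak with the nearest summit. Python 3.11.15, numpy 2.4.6, scipy 1.17.1, statsmodels 0.14.6 and matplotlib 3.10.9 were used, and the code was tested on simulated transcripts and sequences. Named genes are onecut, the hosts of the 15 highest members, the 5 hosts with most members, the 3 highest hosts of each list, the 3 farthest members, 3 on either side of 500 bp and the 3 with most motifs. Results of 1 gene list are not reported here. The members and lists were chosen with earlier results of these data known. Nothing says whether the replicates are separate embryo collections beyond the label of biological replicate. Alternatives were the pooled list, each replicate alone, stricter lists, other promoter distances, other motif windows and a stricter first-intron rule.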

Additional observations from a re-analysis of the deposited data

How the results depend on the processing

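No paired analysis was possible because there is only 1 group. Of 73 alternative values, 40 stayed close to the main value and 33 moved. For counts, close meant within 1.5 times. For most other results it meant within the spread of the replicates' own values, so the values of each replicate alone helped to set their own label. The share of peaks in both replicates has no value for a single replicate. It was judged by the Wilson interval of its main value. With the stronger 50% of peaks there were 801 members in 607 hosts, 23.7% of summits, a median distance of 2737 bp, 46.1% with the core motif, a density ratio to later introns of 2.88 and 93.9% of peaks in both replicates. At an IDR of at most 0.001 there were 967 members, with 2764 bp, a ratio of 2.99 and 93.1%. The pooled list gave 3131 bp and 59.4%. With a promoter distance of 250 bp the share was 28.5%, the distance 2516 bp and the median signal 1.02 times that of the list. With 1000 bp these were 18.6%, 4485 bp and 0.937 times, with a density ratio of 2.31 and 59.4% of peaks in both replicates. Requiring a first intron in every transcript left 1018 members, 15.1%, 2402 bp, a ratio of 1.97 and 80 hosts in the 16 regulator and tissue lists, of 131. Motif windows of 25 and 100 bp on either side gave 28.1% and 46.5%. An overlap of at least 50% of the peak gave 56.9%. Without replicate 2 or without replicate 1, members numbered 1248 to 1423, their share 23.6% to 24.4%, hosts 782 to 873, distance 2990.5 to 3025 bp, motif share 36.6% to 41.6%, signal 0.977 to 1.02 times the list's, density ratio 2.55 to 2.76 and list hosts 103 to 116. The density ratio of first to later introns was above 1 in the 8 alternatives for which it was computed, which leave out the motif windows and the overlap. The depth behind the peaks is unknown, so no floor for weak sites can be given.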

Other observations

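A few members lay near starts that the rule did not use. Within 500 bp of the start of a non-coding RNA or an annotated transposable element there were 62 members (3.76%): 38 near ncRNA genes, 20 near transposable elements, 3 near tRNA genes and 1 near an snRNA gene. Eligible sequence within that distance carried 6.18 members per 100 kb and the remainder 7.38. The core motif was in 32.3% and 39.2% of these members. The member 182 bp from mir-965, inside kis, a chromatin remodeller gene, had a signal of 453.6.

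Peak width split the members. A width of 436 bp was shared by 893 of them (54.1%), which had a median signal of 109.3 and the core motif in 33.4% (30.4 to 36.5). The other 757 had a median width of 224 bp, a median signal of 244.7 and the motif in 45.6% (42.1 to 49.1). By arm, the share with the motif was 33.7% on X (28.5 to 39.2) and 36.1% to 42.4% on the large autosomal arms.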
